A study of Mus musculus with 18 samples.

Results

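Cytosolic nucleic acid sensing was described through 10 genes, which were the rows of the deposited matrix of 36172 genes whose symbol was Mb21d1 (cGAS), Ddx58 (RIG-I), Ifih1 (MDA5), Dhx58 (LGP2), Tmem173 (STING), Mavs, Tbk1, Ikbke, Trex1 or Adar. They were chosen by their role, with earlier results of these data known, and each had 1 row. The shares of all genes given beside them therefore describe the set and do not test it. All 10 passed the filter on low values. The libraries came from brains of 9 mice that each carried Cx3cr1-Cre/Ert2+; NuTRAP+, so that tamoxifen given at about 3 months of age switched on a ribosomal protein fused to EGFP wherever the fractalkine receptor Cx3cr1 is expressed. Some weeks later the mice received 5 mg/kg of the bacterial lipopolysaccharide LPS or its vehicle PBS into the peritoneum, and RNA was taken from 1 brain hemisphere 24 h after that. Each animal gave an input library, made from the supernatant of the centrifuged homogenate before the pull-down. It also gave a positive library, made from RNA pulled down with the tagged ribosomes (translating ribosome affinity purification, TRAP). The 4 groups were Input PBS (n = 4 libraries), Input LPS (n = 4), Positive PBS (n = 4) and Positive LPS (n = 5). All groups shared the Cre and NuTRAP alleles and the tamoxifen, and the PBS mice were 2 females and 2 males while the LPS mice were 4 females and 1 male.

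The 17 libraries held between 22968939 and 35123345 counts, and the input library of LPS animal 271 held 1252 and was left out. Counts were scaled by library and are called normalised counts, and those of the positive fraction stand for ribosome-bound RNA. A gene was called where edgeR's adjusted p was below 0.05 and the fitted level in one group was more than 5/4 of that in the other. Microglia are the main Cx3cr1 cells of the brain, but the Cre driver is also active in macrophages at the borders of the brain and in blood monocytes, whose rapid renewal was the study's reason to wait between tamoxifen and tissue collection. All 10 microglial markers and all 10 border macrophage markers were called higher in the positive fraction than in input in both treatments, and all 10 oligodendrocyte markers were called lower. Endothelial markers were also higher in the positive fraction, with 9 of 10 called in PBS (median log2 difference 1.32) and 7 in LPS (0.67). The summed neuronal markers ranged from 162981 to 247951 normalised counts in the positive libraries and from 188359 to 218942 in input. These ranges overlapped. Of the 10 neuronal markers, PBS animals had 4 called above input and 0 below, and LPS animals 3 and 2. Astrocyte sums overlapped input too, at 139750 to 190418 against 140300 to 147549 with PBS and 144251 to 165197 against 153518 to 164400 with LPS. Of their 10 markers, 1 was called above input in each treatment, while 5 were called below it with PBS and 6 with LPS. The part of RNA from these cells in the levels of the 10 genes was not tested. Values within a group are given below in the order of animals 268, 272, 273 and 506 for PBS and 266, 267, 270, 271 and 507 for LPS, without 271 for input.

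Nucleic acid that appears in the cytosol is read by a small set of proteins. cGAS binds double-stranded DNA and makes the messenger cGAMP, which STING on the endoplasmic reticulum detects, while RIG-I and MDA5 bind viral or misplaced double-stranded RNA and act through MAVS on mitochondria. Both routes end on the kinases TBK1 and IKKε (Ikbke), which phosphorylate the interferon regulatory factors, and TREX1 and ADAR1 hold the system back by degrading DNA and by editing self RNA. Microglia are known for high STING expression in the brain, and lipopolysaccharide reaches the same kinases through TLR4 and the adaptor TRIF.

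LPS raised most of the set in the positive fraction. Of the 10 genes, 8 were called higher and 1, Tmem173, was called lower in Positive LPS than in Positive PBS, beside 19.0% higher, 14.9% lower and 33.9% in either direction among the 14796 genes tested. In input 6 of the 10 were called higher, against 7.16% of all genes and 12.4% in either direction. No gene of the set was called lower there (0 by edgeR, DESeq2 and limma voom, and 0 at an unadjusted p under 0.05). The median log2 LPS effect of the 10 was 0.79 for the pull-down and 0.63 for input, and that of all genes tested was 0.01 and 0.00. The libraries of the LPS and PBS groups did not overlap for 8 of the 10 in the positive fraction and for 6 of the 10 in input, where the background over all genes was 30.1% and 24.2%. Because these are bulk libraries, a change in the number of cells of a type and a change in the RNA of each cell cannot be told apart.

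**Figure D1:**
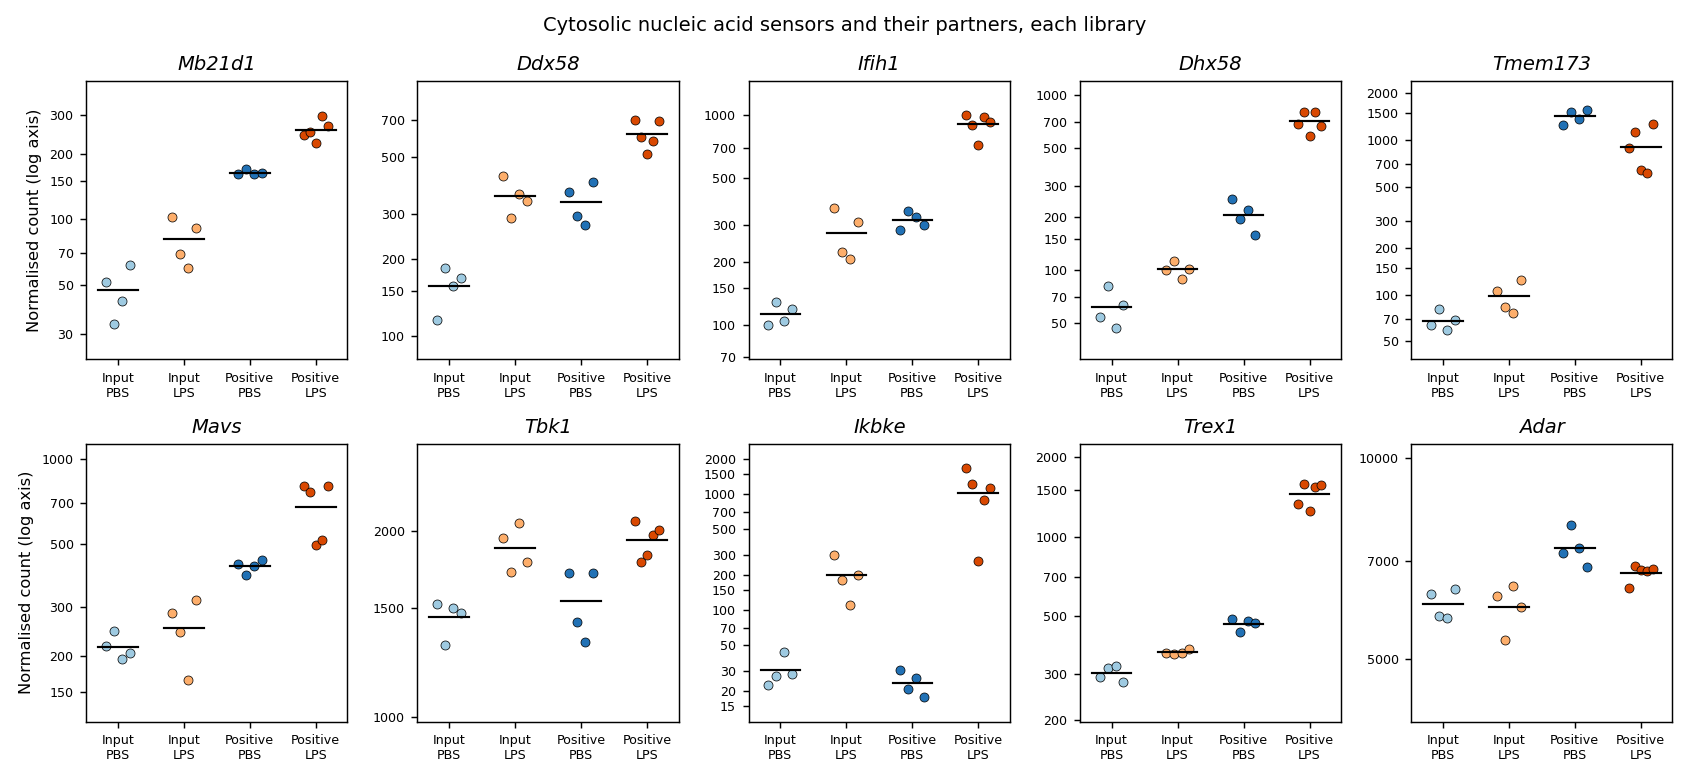
Each panel plots 1 gene, with the normalised count of each library on a log axis and the group mean as a bar. All Positive LPS libraries lie above all Positive PBS libraries for 8 genes, and the groups overlap for Tmem173 and Adar.

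Neutrophil markers moved with LPS as well. Of the 10 listed, 6 passed the filter and 5 were called higher after LPS in each fraction, and none was at 0 in every library. Their summed level was 145 to 327 normalised counts in Positive PBS, 434 to 1158 in Positive LPS, 472 to 869 in Input PBS and 770 to 1677 in Input LPS. Between fractions, 4 of these markers were called lower in the positive fraction with PBS and 3 with LPS. The summed microglial markers were at 201553 to 247413 normalised counts in Positive PBS and 155485 to 215270 in Positive LPS, with 6 of 10 called lower and 2 called higher after LPS. Of the 10 border macrophage markers 5 were called lower there, and their sum was 11121 to 19465 in Positive PBS and 7650 to 16310 in Positive LPS. Of 7 monocyte markers tested, 2 were called higher and 2 lower after LPS in the positive fraction. Endothelial markers had 1 of 10 called higher and 4 lower in that fraction, neuronal markers 5 lower, oligodendrocyte markers 4 lower, and astrocyte markers 2 higher and 1 lower. Among input libraries 8 of 10 oligodendrocyte markers were called lower (median log2 -0.71), and their sum was 70734 to 105762 in Input PBS and 43467 to 62090 in Input LPS. The part of these markers in the LPS effects on the 10 genes was not tested.

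Mb21d1 encodes cGAS, the cytosolic DNA sensor, on chr9 from 78430518 to 78443147 of mm10. Its normalised count was 51.9, 33.4, 42.5 and 62.0 in the Input PBS libraries and 103, 69.8, 59.9 and 91.4 in the Input LPS libraries. The positive libraries held 161, 170, 161 and 163 in PBS and 244, 250, 223, 296 and 267 in LPS. Every positive library was above every input library, and the PBS and LPS groups were apart in the positive fraction but overlapped in input. The fitted LPS effect was 0.64 on the log2 scale (SE 0.17, adjusted p = 0.00709) among positive libraries and 0.77 ± 0.20 (SE, adjusted p = 0.0128) among input libraries. Both were called, and the input call was lost without Input LPS animal 266 (0.64). With means of 164 ± 4.35 (SD, n = 4) and 256 ± 27.2 (SD, n = 5) normalised counts in the positive fraction, Mb21d1 was 1.56-fold higher after LPS.

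The RNA helicases all rose in both fractions, but by different amounts. Ddx58 encodes RIG-I, which recognises the triphosphate end of short double-stranded RNA (chr4 from 40203777 to 40239825). It was at 116, 185, 158 and 169 normalised counts in Input PBS, 424, 291, 360 and 339 in Input LPS, 366, 296, 272 and 400 in Positive PBS, and 699, 603, 516, 579 and 691 in Positive LPS. The groups did not overlap in either fraction, and Input LPS reached the range of Positive PBS. Its log2 LPS effect was 0.89 ± 0.15 (SE, adjusted p = 1.75e-04) among positive libraries and 1.17 ± 0.16 (SE, adjusted p = 7.82e-05) among input libraries.

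Ifih1 encodes MDA5, the sensor of long double-stranded RNA (chr2 from 62595793 to 62646255). Its normalised counts were 100, 128, 104 and 119 in Input PBS, 362, 223, 205 and 308 in Input LPS, 283, 350, 326 and 301 in Positive PBS, and 1000, 899, 725, 987 and 933 in Positive LPS. Positive LPS stood above all other libraries, its lowest at 725 against 350 for the highest Positive PBS library. Its fitted log2 change with LPS was 1.53 ± 0.16 (SE, adjusted p = 5.34e-07) among positive libraries and 1.28 ± 0.17 (SE, adjusted p = 3.52e-05) among input libraries, folds of 2.88 and 2.44.

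Dhx58 encodes LGP2, a relative of both that lacks their signalling domain and tunes them (chr11 from 100694884 to 100704271). It was at 53.9, 81.7, 46.6 and 63.2 normalised counts in Input PBS, 100, 113, 89.4 and 102 in Input LPS, 256, 195, 221 and 158 in Positive PBS, and 684, 800, 583, 799 and 666 in Positive LPS. The groups did not overlap in either fraction. On the log2 scale, its LPS effect was 1.77 ± 0.16 (SE, adjusted p = 1.72e-07) among positive libraries and 0.73 ± 0.18 (SE, adjusted p = 0.0108) among input libraries. The LPS effect on Dhx58 was larger in the positive fraction by 1.04 ± 0.24 (SE, adjusted p = 0.0125), whereas no difference between fractions was called for Ddx58 (-0.29 ± 0.22, SE, adjusted p = 0.538) or Ifih1 (0.24 ± 0.22, SE, adjusted p = 0.620).

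These unequal changes altered the make-up of the helicases within a library. Per kb of transcript, Dhx58 made up 35.5% ± 5.67 (SD, n = 4) of the 3 helicases in Positive PBS and 44.8% ± 3.18 (SD, n = 5) in Positive LPS. Ddx58 made up 35.6% ± 6.01 and 24.5% ± 2.39. The ranges did not overlap for either share. The Dhx58 share was 27.9% to 40.4% with PBS against 41.4% to 48.4% with LPS, and the Ddx58 share 30.1% to 43.9% against 21.4% to 27.0%. Among input libraries the Dhx58 share was 23.3% to 30.8% with PBS and reached 27.4% with LPS, so the ranges overlapped. The Ifih1 share stayed between 23.7% and 34.5% in all 17 libraries.

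The start sites of the helicases were read for the motif that interferon-stimulated gene factors bind. RefSeq windows of 300 bases (GRCm38.p6, 250 before to 50 after a start) were found for 8 of the 10 genes, and the core of the interferon-stimulated response element, GAAANNGAAA, was searched on both strands. It was in 2 of the 11 windows of these genes, those of Ifih1 and Ddx58, and in 3.44% of the 32851 windows of all genes. In Ifih1 it began at base 33 of the transcript and in Ddx58 at base 3, in the latter as its complement. Mavs, Tbk1, Mb21d1, Ikbke, Trex1 and Adar did not have these letters in their windows, and Dhx58 and Tmem173 had no entry. The search finds only this spacing of the repeats. An Adar stretch printed further below holds GAAACGAAA, in which they lie closer together, so a variant of the element is not excluded there. Ifih1 and Ddx58 were called higher after LPS in both fractions, and so were Mb21d1, Tbk1 and Ikbke, which lack the match. The part of the motif in the LPS effects was not tested. The stretches of Ifih1 and Ddx58 are shown with the match in capitals on the strand of the gene.
Ifih1, chr2:62646206-62646235, minus strand: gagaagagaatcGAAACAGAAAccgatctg
Ddx58, chr4:40239804-40239833, minus strand: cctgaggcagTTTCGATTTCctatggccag

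Tmem173 was the gene of the set that was called lower after LPS in the positive fraction. It encodes STING, the receptor of cGAMP, on chromosome 18. Its normalised count was 63.8, 80.5, 59.0 and 69.3 in Input PBS and 106, 83.6, 76.4 and 125 in Input LPS. The positive libraries held 1246, 1509, 1375 and 1571 in PBS and 884, 1136, 637, 609 and 1264 in LPS. The 4 lowest Positive LPS libraries lay below every Positive PBS library, and that of animal 507 overlapped them. Animals 270 and 271 were the lowest. They also had the lowest border macrophage sums of the Positive LPS libraries (7769 and 7650 normalised counts, against 12913 to 16310 in the others). The same held for the endothelial sums (6802 and 7164, against 7436 to 11420) and the monocyte sums (1339 and 1096, against 1779 to 2139). The microglial sums did not follow, with the lowest in animal 266 (155485, against 190905 in 270 and 181656 in 271). The neutrophil sum was lowest in animal 270 (434) but was 912 in animal 271, where the group ran to 1158. Over all libraries the endothelial sums were 7939 to 11901 in Positive PBS and 6802 to 11420 in Positive LPS, and the part of these markers in the Tmem173 values was not tested. Its log2 response to LPS was -0.65 ± 0.19 (SE, adjusted p = 0.0103) in the positive fraction, a fold of 1.57 lower, and was called under each of the 27 alternatives (-0.80 to -0.53). In input the value was 0.53 ± 0.23 (SE, adjusted p = 0.149), which was not called. The difference between fractions was -1.18 ± 0.30 (SE, adjusted p = 0.0220) and was called, but not without Input LPS animal 507 (-1.04) or Input PBS animal 273 (-1.11), and not with limma voom (-1.22). With the animal as a block it was called (-1.08 ± 0.17, SE, adjusted p = 9.76e-04).

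Mavs encodes the mitochondrial adaptor of RIG-I and MDA5 (chr2 from 131234063 to 131248024). It was at 218, 247, 195 and 205 normalised counts in Input PBS, 285, 245, 165 and 316 in Input LPS, 424, 388, 417 and 441 in Positive PBS, and 807, 764, 497, 519 and 804 in Positive LPS. The positive groups did not overlap, and the Positive LPS libraries fell into a higher set of 3 and a lower pair, animals 270 and 271, which were also the lowest for Tmem173. The fitted log2 response was 0.70 ± 0.18 (SE, adjusted p = 0.00422) among positive libraries and 0.23 ± 0.19 (SE, adjusted p = 0.469, 95% interval -0.18 to 0.64) among input libraries. The difference of 0.47 ± 0.26 (SE, adjusted p = 0.339) was not called without the animal as a block and was called with it (0.56 ± 0.14, SE, adjusted p = 0.0171).

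The kinases differed most from each other. Ikbke, the inducible kinase IKKε (chr1 from 131254602 to 131279563), was at 22.9, 27.3, 43.9 and 28.3 normalised counts in Input PBS and 302, 184, 110 and 203 in Input LPS. In the positive libraries it was at 30.5, 20.8, 26.2 and 17.9 in PBS and 1666, 1213, 265, 882 and 1133 in LPS. The groups did not overlap in either fraction, and the lowest Positive LPS library, that of animal 270, was below the highest Input LPS library. Its log2 change with LPS was 5.43 ± 0.48 (SE, adjusted p = 9.35e-08) in the positive fraction, a fold of 43.0, and 2.71 ± 0.45 (SE, adjusted p = 3.59e-04) in input, a fold of 6.53. The difference between fractions was 2.72 ± 0.64 (SE, adjusted p = 0.0137) and was not called with limma voom (2.53), but was called with the animal as a block (2.61 ± 0.37, SE, adjusted p = 5.11e-04). Animal 270 also had the lowest summed neutrophil markers of the Positive LPS libraries (434 normalised counts, against 761 to 1158 in the others), and the part of those markers in the Ikbke values was not tested.

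Tbk1, the kinase present in most cells (chr10 from 121546456 to 121586794), had the smallest values of the genes that were called. Its normalised counts were 1522, 1308, 1499 and 1473 in Input PBS, 1947, 1715, 2060 and 1778 in Input LPS, 1711, 1423, 1322 and 1711 in Positive PBS, and 2075, 1778, 1827, 1968 and 2007 in Positive LPS. LPS and PBS groups did not overlap in either fraction. On the log2 scale, the response to LPS was 0.32 ± 0.09 (SE, adjusted p = 0.00698) among positive libraries and 0.37 ± 0.09 (SE, adjusted p = 0.0112) among input libraries, both just above the fold threshold. The positive call was lost without Positive LPS animal 266 (0.30) or 507 (0.32), Positive PBS animal 272 (0.29) or 273 (0.26) or Input LPS animal 270 (0.32), with sex as a term (0.28) and with only the libraries compared (0.31). The input call was lost without Input PBS animal 272 (0.32). The difference between fractions was -0.04 ± 0.13 (SE, adjusted p = 0.894, 95% interval -0.32 to 0.23).

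Per kb of transcript Ikbke was a small share of both kinases with PBS and a larger one with LPS. It made up 1.44% ± 0.370 (SD, n = 4) of the sum of both kinases in Positive PBS and 31.5% ± 12.0 (SD, n = 5) in Positive LPS, with 42.8%, 38.8%, 11.9%, 29.4% and 34.4% in the 5 LPS libraries. Among input libraries the share was 1.38% to 2.65% with PBS and 4.73% to 12.6% with LPS. The PBS libraries of both fractions ran from 0.963% to 2.65%, below every LPS library.

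Trex1 encodes the exonuclease that removes cytosolic DNA before cGAS binds it (chr9 from 109057932 to 109059723). It was at 292, 317, 322 and 280 normalised counts in Input PBS, 362, 359, 360 and 375 in Input LPS, 486, 434, 479 and 467 in Positive PBS, and 1334, 1591, 1251, 1549 and 1565 in Positive LPS. The 4 groups did not overlap at all. The log2 LPS effect was 1.64 ± 0.09 (SE, adjusted p = 4.32e-10) in the positive fraction, a fold of 3.12. In input it was 0.27 ± 0.09 (SE, adjusted p = 0.0690), which was not called although the groups were apart. The difference between fractions was 1.37 ± 0.13 (SE, adjusted p = 6.37e-06), the lowest adjusted p of the 10 genes for that contrast.

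Adar encodes the enzyme that deaminates adenosine in double-stranded RNA and so keeps self RNA from MDA5 (chr3 from 89715022 to 89753455). Its normalised counts were 6247, 5793, 5754 and 6358 in Input PBS, 6199, 5330, 6421 and 5981 in Input LPS, 7192, 7916, 7311 and 6857 in Positive PBS, and 6373, 6882, 6797, 6761 and 6802 in Positive LPS. The treatment groups overlapped in both fractions. The log2 LPS effect was -0.12 ± 0.07 (SE, adjusted p = 0.153, 95% interval -0.27 to 0.02) among positive libraries and -0.01 ± 0.07 (SE, adjusted p = 0.927, 95% interval -0.17 to 0.14) among input libraries, and neither was called. The difference between fractions was -0.11 ± 0.10 (SE, adjusted p = 0.603). Adar has an interferon-inducible and a constitutive start, and the deposited table sums both into 1 value.

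The same windows were searched for the gamma-activated site TTCNNNGAA and for the κB consensus by name. The gamma-activated site was in 1 of the 11 windows, at an Adar start (8.30% of all windows), and the κB consensus in 1, upstream of a Trex1 start (8.46% of all windows). Both counts are near the share of all windows. Ikbke, which rose 43.0-fold in the positive fraction, had no κB match in its window. The part of these motifs in the LPS effects was not tested. The stretches are printed with the match in capitals on the strand of the gene.
Adar, chr3:89730729-89730758, plus strand: ggggaagccttTTCAAGGAAacgaaagtga
Trex1, chr9:109059944-109059973, minus strand: gcatGGGGGCCTCCaagcccccacgctgtc

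**Figure D2:**
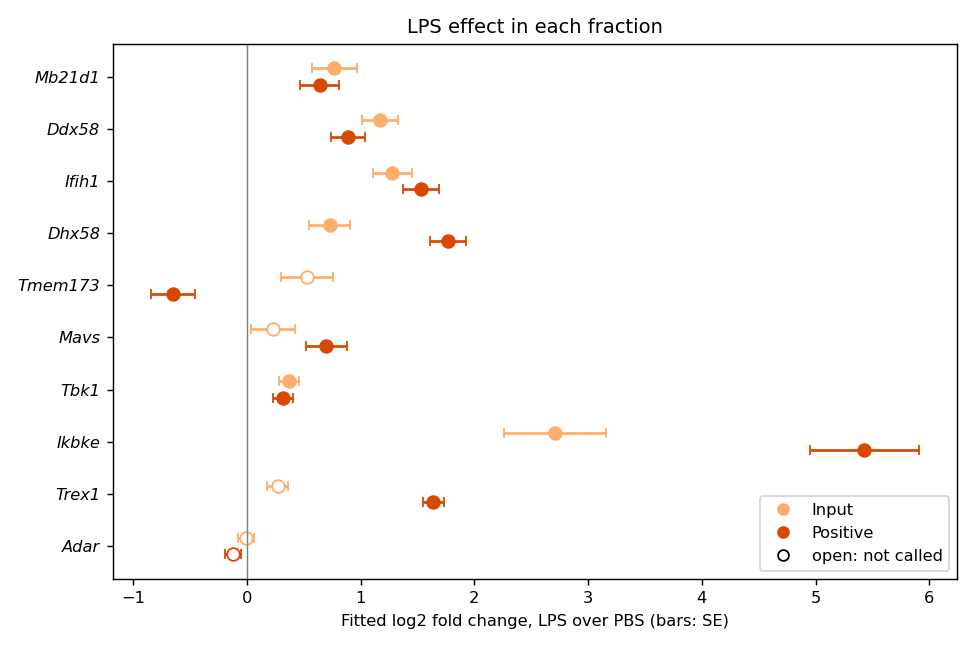
Fitted log2 fold change of LPS over PBS in input and in the positive fraction for each gene, with the standard error as bars and open points where the change was not called. Ikbke reaches 5.43 with the pull-down and 2.71 in input. Tmem173 is at -0.65 and 0.53.

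The LPS effect differed between fractions for 4 of the 10 genes by the test of the difference itself, against 6.88% of all genes tested. It was larger in the positive fraction for Dhx58, Ikbke and Trex1 (5.46% of all genes) and lower for Tmem173 (1.42%). For Mb21d1 the difference was -0.13 ± 0.26 (SE, adjusted p = 0.845, 95% interval -0.69 to 0.43), so no difference was called for the DNA sensor. The 95% interval for Tmem173, -1.83 to -0.53, overlapped that of Mb21d1, and the interval for Dhx58, 0.52 to 1.56, did not. The genes were not tested against each other.

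The pull-down enriched most of the set already without LPS. In PBS animals 7 of the 10 genes were called higher in the positive fraction than in input, against 21.1% of all genes, and the 3 others were Tbk1, Ikbke and Adar. In LPS animals 8 of the 10 were called higher, against 27.7% of all genes, with Ikbke added. The median log2 difference of the 10 genes was 1.02 in PBS and 1.69 in LPS, and that of all genes was -0.00 and -0.03. Scaling that includes the near-empty library shifts the median of all genes to -0.117 in PBS and -0.108 in LPS, and the deposited log2 values shift it to -0.130 and -0.141. With these the share of calls that were higher was 37.6% and 37.0% in place of 52.8% in PBS, and 43.2% and 41.1% in place of 51.8% in LPS, and with each of them 7 and 8 of the 10 genes were still called.

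Tmem173 was the most enriched of the 10, with a log2 difference of 4.39 ± 0.24 (SE, adjusted p = 4.41e-11) in PBS, a fold of 20.9. Within each PBS animal its log2 ratio of positive to input lay between 4.23 and 4.54. In the LPS animals with both libraries it was 3.06, 3.76, 3.06 and 3.34, below every PBS animal, and the fitted value was 3.21 ± 0.22 (SE, adjusted p = 7.29e-10), a fold of 9.23. The median of the 10 microglial markers was 4.22 in PBS and 4.03 in LPS, and that of the 10 border macrophage markers was 3.94 and 3.18.

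The sensors were called enriched in both treatments, with lower values than STING. In PBS, where the median of the endothelial markers was 1.32, the log2 difference was 1.79 ± 0.20 (SE) for Mb21d1, 1.09 ± 0.17 (SE) for Ddx58, 1.48 ± 0.17 (SE) for Ifih1 and 1.76 ± 0.18 (SE) for Dhx58, with adjusted p between 2.63e-07 and 3.33e-05. In LPS it was 1.66 ± 0.18 (SE), 0.80 ± 0.15 (SE), 1.73 ± 0.16 (SE) and 2.80 ± 0.17 (SE), with adjusted p between 1.39e-10 and 1.96e-04. Only for Dhx58 among these sensors did the ratios of the animals stand apart by treatment. They reached at most 2.25 in PBS and were 2.77, 2.83, 2.70 and 2.70 in LPS.

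Mavs and Trex1 were enriched weakly in PBS and more in LPS. The log2 difference of Mavs was 0.95 ± 0.19 (SE, adjusted p = 5.13e-04) in PBS and 1.42 ± 0.18 (SE, adjusted p = 2.59e-06) in LPS, and the ratios of the animals were 0.65 to 1.10 against 1.35 to 1.64. Trex1 was at 0.63 ± 0.10 (SE, adjusted p = 3.30e-05) in PBS and 2.00 ± 0.09 (SE, adjusted p = 3.82e-12) in LPS, with ratios of 0.74, 0.45, 0.57 and 0.74 against 1.88, 2.15, 1.80 and 2.06. For both genes the PBS and LPS animals did not overlap.

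Ikbke was not called between fractions in PBS (-0.35 ± 0.53, SE, adjusted p = 0.615, with an upper 95% limit of 0.80) and was called higher in the positive fraction in LPS (2.37 ± 0.38, SE, adjusted p = 3.19e-05). The animals' ratios were 0.41, -0.39, -0.74 and -0.66 in PBS and 2.46, 2.72, 1.27 and 2.48 in LPS. Tbk1 had a log2 difference of 0.09 ± 0.09 (SE, adjusted p = 0.462) in PBS and 0.04 ± 0.09 (SE, adjusted p = 0.694) in LPS, and its sign turned with all 18 libraries in the scaling (-0.04 and -0.05) and in the deposited log2 values (-0.05 and -0.06). Adar was 0.28 ± 0.07 (SE, adjusted p = 0.00373) in PBS and 0.17 ± 0.07 (SE, adjusted p = 0.0381) in LPS, folds of 1.21 and 1.12 that stayed under the fold threshold.

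**Figure D3:**
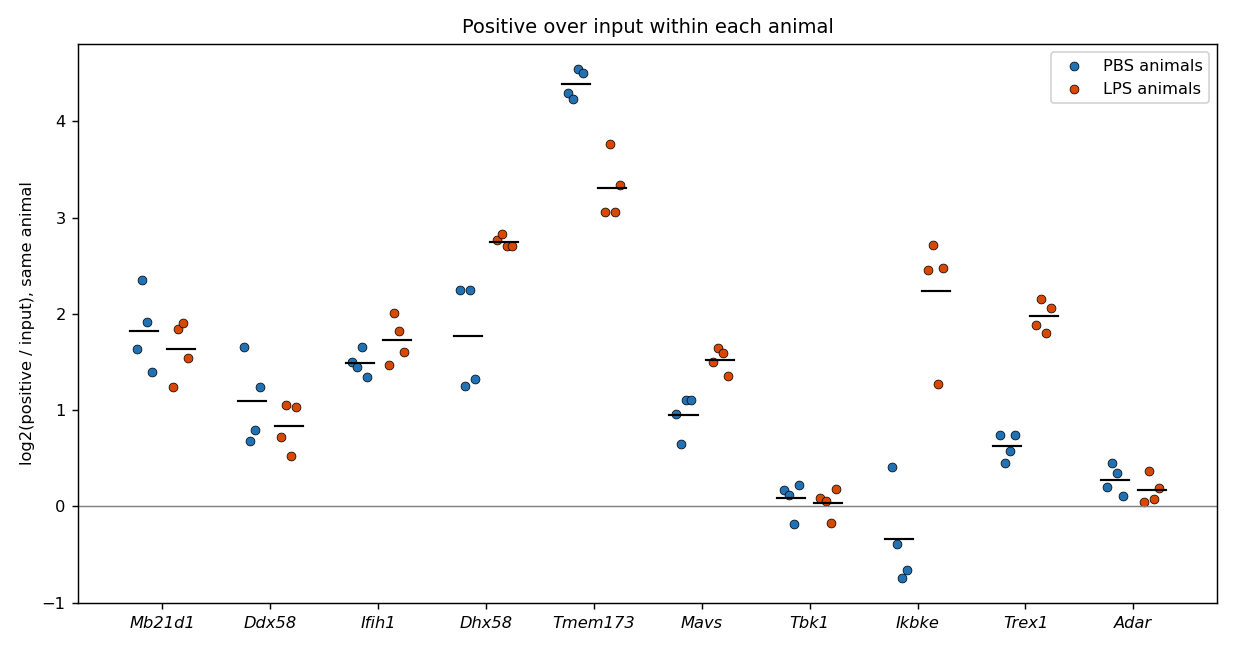
Log2 ratio of the positive to the input normalised count within each of 8 animals for each gene, with PBS and LPS animals side by side and means as bars. Tmem173 lies at 4.23 to 4.54 in PBS animals and 3.06 to 3.76 in LPS animals, and Tbk1 lies around 0 in both.

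Levels can be set beside each other only per length, and for this the count was divided by the mean length of the RefSeq-matched transcripts. In Positive PBS Adar led with 1414 ± 85.4 (SD, n = 4) normalised counts per kb, followed by Tmem173 at 656 ± 66.6, Tbk1 at 510 ± 66.1 and Trex1 at 436 ± 21.7. Mavs followed at 141 ± 7.39, then Ddx58 at 86.1 ± 15.3, Dhx58 at 86.1 ± 17.2, Ifih1 at 69.4 ± 6.45, Mb21d1 at 40.5 ± 1.08 and Ikbke at 7.33 ± 1.72. Among neighbours, Tbk1 and Trex1 lay within their summed SDs, as did Ddx58, Dhx58 and Ifih1. The level of Tmem173 was above that of each of the 4 sensors.

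After LPS the order changed. Trex1 at 1364 ± 145 (SD, n = 5) normalised counts per kb and Adar at 1298 ± 38.7 were level within their spread in Positive LPS, and Tbk1 followed at 639 ± 41.2. Tmem173 was at 417 ± 135, Ikbke at 317 ± 158, Dhx58 at 293 ± 38.7, Mavs at 229 ± 52.7, Ifih1 at 200 ± 24.3, Ddx58 at 159 and Mb21d1 at 63.2 ± 6.72. From Tmem173 down to Ddx58 each pair of neighbours lay within its summed SDs, and Mb21d1 lay below that run. Ikbke moved from the tenth place to the fifth, and the DNA sensor Mb21d1 became the lowest.

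In Input PBS the order began with Adar at 1166 ± 59.7 (SD, n = 4), Tbk1 at 480 ± 32.2 and Trex1 at 283 ± 18.9 normalised counts per kb, and Tmem173 stood at 31.4 ± 4.25, below Mavs (73.0 ± 7.58) and Ddx58 (40.5 ± 7.64). Ifih1 was at 24.8 ± 2.92, Dhx58 at 25.4 ± 6.30, Mb21d1 at 11.7 ± 3.04 and Ikbke at 9.41 ± 2.82. From Ddx58 through Tmem173 and Dhx58 to Ifih1 neighbours lay within their summed SDs, as did Mb21d1 and Ikbke.

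**Figure D4:**
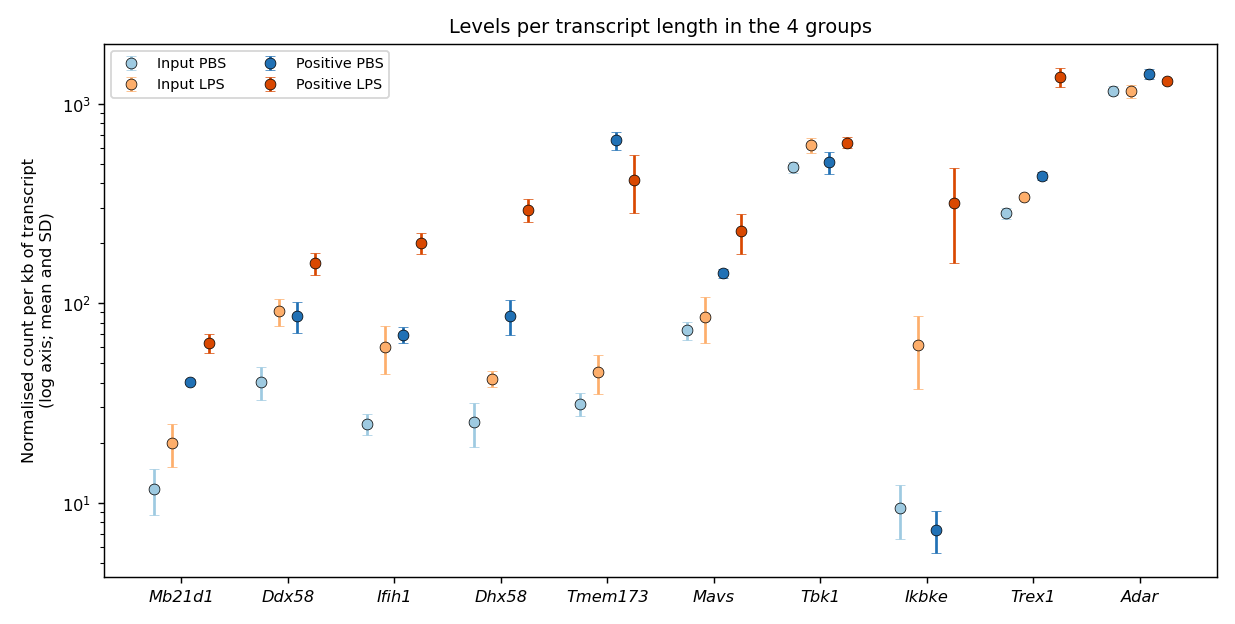
Mean normalised count per kb of transcript on a log axis for each gene in the 4 groups, with the SD as bars. Tmem173 rises from 31.4 in Input PBS to 656 in Positive PBS, and Ikbke from 7.33 in Positive PBS to 317 in Positive LPS.

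The wider pathway was described by 6 lists with 101 other genes, of which 95 were tested. These lists too were chosen with earlier results of these data known. After LPS 46 were called higher and 5 lower among positive libraries, where all genes gave 19.0% and 14.9%. In input 26 were called higher, where all genes gave 7.16%. These shares of all genes also stand beside the counts of each list below. No listed gene was called lower in input (0 by edgeR and limma voom, 1 by DESeq2, and 4 at an unadjusted p under 0.05). The median log2 LPS effect of the 95 was 0.41 with and 0.19 without the pull-down, beside 0.01 and 0.00 for all genes.

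The effectors of double-stranded RNA, which are the 2',5'-oligoadenylate synthetases, the kinase PKR and the Ifit proteins, had the largest share of calls among the 6 lists. Of 11 tested, 10 were called higher in the positive fraction and 9 in input, with medians of 1.65 and 1.68. With the pull-down the log2 LPS effect of Oasl1 was 3.93 ± 0.50 (SE, adjusted p = 6.29e-06), that of Oas1g 2.04 ± 0.33 (SE, adjusted p = 9.88e-05) and that of Oas3 0.70 ± 0.18 (SE, adjusted p = 0.00540). Oasl1 was at only 3.27 to 20.9 normalised counts in Positive PBS and 0 to 11.7 in Input PBS, so the size of its effects is uncertain. No difference between fractions was called for any of the 11 (0 by edgeR, DESeq2 and limma voom, and 3 at an unadjusted p under 0.05). Of those 3, 2 were larger in the positive fraction and 1 lower. The fitted difference of Oasl1 was 1.82 ± 0.79 (SE, adjusted p = 0.202). With 6.88% of all genes called for this contrast, 11 genes are too few for that count to show that both fractions respond alike. Oas and Ifit genes lie in families of close copies, and since the counts hold fractions of reads, their split between copies is uncertain.

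Of the 15 tested genes of DNA sensing beside cGAS, 7 were called higher and 2 lower with the pull-down, and 4 higher in input. All genes gave 19.0% higher and 14.9% lower with the pull-down, near the count of lower calls in this list, and 7.16% higher in input. Zbp1, a sensor of Z-form nucleic acid, went from 40.9 ± 11.6 (SD, n = 4) to 600 ± 152 (SD, n = 5) normalised counts in the positive fraction, a log2 effect of 3.87 ± 0.36 (SE, adjusted p = 1.91e-07). In input its effect was 4.04 ± 0.46 (SE, adjusted p = 7.15e-06). The Input PBS level was 6.06 ± 5.45 (SD, n = 4) with a lowest of 1.03, under the floor of 3 counts, so the size of that effect is uncertain. Mnda was at 3.29 ± 0.27 (SE, adjusted p = 4.03e-08) and Mndal at -1.09 ± 0.27 (SE, adjusted p = 0.00354) in the positive fraction. Both belong to the family of interferon-inducible p200 proteins, whose close copies make the split of reads uncertain.

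Partners and brakes of RNA sensing had 7 of 18 called higher in the positive fraction and 6 in input. Ddx60, a helicase that aids RIG-I, was at 1.65 ± 0.20 (SE, adjusted p = 4.94e-06), and Zc3hav1, a zinc finger protein that binds viral RNA, at 1.21 ± 0.14 (SE, adjusted p = 2.30e-06). The lowest called was the stress granule protein gene G3bp1 at 0.37 ± 0.10 (SE, adjusted p = 0.00536), for which the difference between fractions was also called (0.61 ± 0.14, SE, adjusted p = 0.0127).

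Regulators of STING and of cGAMP had 6 of 17 called higher in the positive fraction and 4 in input. Rhbdf2, which helps STING to reach its site of action, was at 2.15 ± 0.27 (SE, adjusted p = 5.28e-06) and the de-ISGylase gene Usp18 at 2.13 ± 0.18 (SE, adjusted p = 4.47e-08). Lrrc8a, a subunit of a channel that carries cGAMP, was the lowest called at 0.46 ± 0.08 (SE, adjusted p = 1.07e-04). The receptor gene Tmem173 itself was called lower in the same libraries.

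Of the 20 tested genes of the kinase complex and interferon induction, 11 were called higher in the positive fraction and 3 in input. Tnfaip3, which encodes the ubiquitin-editing brake A20, was at 3.22 ± 0.23 (SE, adjusted p = 5.87e-09) among positive libraries and 1.49 ± 0.23 (SE, adjusted p = 1.92e-04) among input libraries, and the difference was called (1.72 ± 0.31, SE, adjusted p = 0.00209). Irf5 was the lowest called at 0.41 ± 0.12 (SE, adjusted p = 0.0112).

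The interferon regulatory factors that the kinases phosphorylate behaved unlike each other. Irf7 went from 115 ± 12.6 (SD, n = 4) to 667 ± 68.8 (SD, n = 5) normalised counts with the pull-down. Its input level went from 69.4 ± 20.7 to 559 ± 64.6. These were log2 effects of 2.53 ± 0.16 (SE, adjusted p = 2.40e-09) and 3.01 ± 0.17 (SE, adjusted p = 3.65e-09). Irf3 was at 0.22 ± 0.25 (SE, adjusted p = 0.510) and -0.37 ± 0.26 (SE, adjusted p = 0.389), neither called. Ifnb1, the interferon beta gene, had between 0 and 2.21 normalised counts in any positive library and 0 in every input library, which is at or under the floor of 3 counts, so no fold is given.

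Of 14 tested nucleases and RNA editing enzymes, 5 rose and 3 fell after LPS in the positive fraction, where all genes gave 19.0% and 14.9%. In input edgeR called 0 of them, DESeq2 called 2 and limma voom 1, and 5 had an unadjusted p under 0.05. Isg20, an exonuclease that degrades RNA, was at 1.04 ± 0.28 (SE, adjusted p = 0.00569) and the lysosomal Dnase2a at 0.83 ± 0.12 (SE, adjusted p = 2.18e-05). Pld4, an exonuclease of endolysosomes, fell from 5393 ± 578 (SD, n = 4) to 2056 ± 585 (SD, n = 5) normalised counts, a log2 effect of -1.39 ± 0.19 (SE, adjusted p = 1.24e-05), and was also among the genes enriched by the pull-down in PBS (4.49 ± 0.23, SE, adjusted p = 2.01e-11), as Tmem173 was. Genes that were called higher after LPS were enriched in PBS as well, among them Dnase2a (2.51 ± 0.13, SE) and Irf5 (4.00 ± 0.15, SE).

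**Figure D5:**
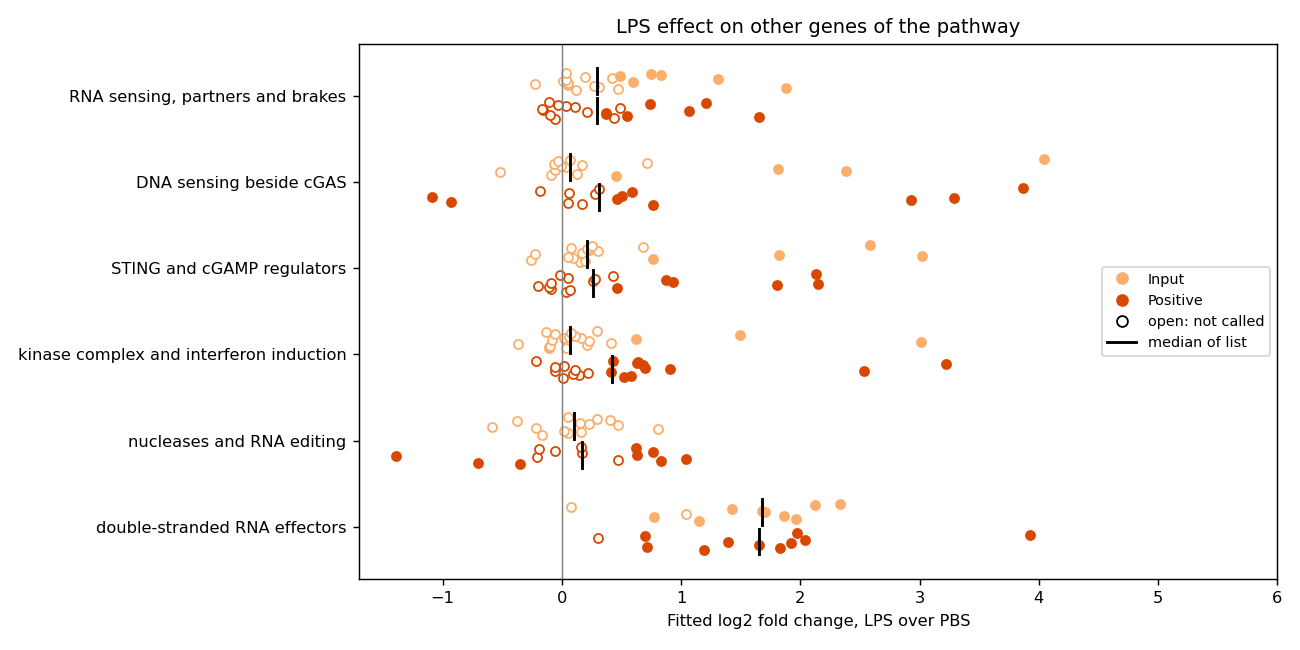
Fitted log2 fold change of LPS over PBS for each tested gene of the 6 pathway lists, in input and in the positive fraction, with filled points where called and a bar at the median of the list. The double-stranded RNA effectors have medians of 1.65 and 1.68, and the other lists lie closer to 0.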

How the data were processed

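RNA libraries of 18 samples were analysed from the deposited matrix, of which 17 were used. Per the study's methods, the authors had reads trimmed, mapped with their strand to mm10 in Strand NGS and kept where they aligned normally, and the file header names RefSeq as the gene models. The authors deposited estimated counts, 81.6% of the nonzero values not whole, and log2 values scaled by DESeq. The deposited log2 values were checked only for genes with higher mean counts, in the 17 libraries used. All of those lay within 0.01 of log2 counts over size factors of all 18 libraries minus the Input PBS median. Those size factors rest on 582 genes, so the main results use the counts.

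Counts were rounded and scaled by median-of-ratios size factors over 17 libraries. Genes above 20 normalised counts in every library of at least 1 group were kept (14796). edgeR's quasi-likelihood test (edgeR 4.0.16, limma 3.58.1, DESeq2 1.42.0, R 4.3.3) was fitted once over the 4 groups, with 13 residual degrees of freedom, 5 contrasts and Benjamini-Hochberg adjustment over all genes, and was tested on simulated data. Calls needed an adjusted p below 0.05 and a level above 5/4 of the other group's. Intervals are 95% from the SE and the residual degrees of freedom. The same animals gave both fractions, and libraries of 1 animal deviated together in all 8 pairs (r = 0.162 to 0.519). Transcript lengths came from GENCODE transcripts paired with RefSeq mRNAs, start windows from RefSeq (GRCm38.p6).

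Named were all 10 genes in every contrast and, from each list, the 2 called genes with the largest and the 1 with the lowest LPS effect in the positive fraction, plus Irf3, Irf7 and Ifnb1. The members and lists were chosen with earlier results of these data known. The alternatives were DESeq2, limma voom, TMM scaling, no filter, filterByExpr, the replicate block, only the libraries compared, all 18 libraries, sex as a term, the deposited log2 values, and leaving out each of 17 libraries.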

Additional observations from a re-analysis of the deposited data

Results flagged for a closer look

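The LPS effect differed between the fractions, by the interaction test of edgeR, for 4 of the 10 genes. The log2 difference, positive minus input, was -1.18 for Tmem173, 1.04 for Dhx58, 2.72 for Ikbke and 1.37 for Trex1. A library stood apart from the rest of its group for 2 genes among the 40 groups of 4 or 5 libraries examined. The lowest Positive LPS library of Adar, that of animal 266, was separated from the nearest of the others by 0.769 of the range of the group on the log2 scale. The highest Input LPS library of Trex1, that of animal 507, was separated by 0.831. Chance flags about 1 in 20 groups.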

How the results depend on the processing

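Each of the 50 results for single genes was recomputed under 27 alternatives (26 for the difference between fractions), 1340 values in all, of which 1312 kept their direction and their side of the threshold. With the replicate block in edgeR, 1915 genes in place of 1018 were called for the difference between fractions, and 5 of the 10 genes in place of 4, since Mavs was gained (0.56). The block changed no other call of the 10 genes against the fit without it (for the LPS effects it was run in limma voom, as an animal lies within 1 treatment). With limma voom, 2 of the 10 genes in place of 4 were called for that difference, since Ikbke and Tmem173 were lost, and both were called with the block (2.61 and -1.08). Values near 0 that were not called changed sign. Tbk1 between fractions was at -0.04 and -0.05 in PBS, and -0.05 and -0.06 in LPS, when all 18 libraries set the scale and when the authors' log2 values were used, and the LPS effect on Adar in input was 0.01 in the latter. Leaving out each library in turn gave -0.05 to 0.04 for Adar in input, -0.29 to 0.01 for the difference of Mb21d1 and -0.11 to 0.01 for that of Tbk1. It gave 8 to 9 called genes of the 10 for the LPS effect in the positive fraction, 5 to 6 in input, 7 and 8 between fractions in PBS and LPS, and 3 to 4 for the difference. Over all genes it gave 4433 to 5119, 1453 to 1978, 5299 to 6066, 7447 to 8129 and 749 to 1264 calls. Mb21d1 in input was also lost with only the libraries compared (0.76). Ikbke had 17.9 to 43.9 normalised counts in the PBS libraries, and its LPS effect was called under all 27 alternatives in both fractions.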
